A study of Mus musculus with 18 samples.

Results

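The genes described here are those of the cytokines interleukin-3 (Il3) and GM-CSF (Csf2) and of the receptor chains that bind them: the alpha chains Il3ra and Csf2ra, the common beta chain Csf2rb, and Csf2rb2, the mouse beta chain specific for IL-3. They were taken by gene symbol from the deposited table, which gave 6 genes of 56413, and all 6 were among the 14076 genes that passed the filter on low counts. The series is bulk RNA sequencing of mouse basophils grown from bone marrow, with 18 libraries in 6 groups of 3: cells of WT or TTP-KO mice, given control OVA for 2 h, TNP-OVA for 2 h or TNP-OVA for 4 h. TTP is tristetraprolin, the product of Zfp36, a protein that binds AU-rich elements in mRNA tails and promotes their decay. All groups shared the same culture: bone marrow cells were grown for 7 days in 0.3 ng/mL recombinant IL-3, loaded with TNP-specific IgE (1 µg/mL) from day 6, and enriched for CD49b+ cells on magnetic beads, with 50000 cells per sample and antigen at 10 ng/mL. TNP-OVA carries the hapten that this IgE recognises and so cross-links the IgE receptor, whereas control OVA does not. The control was taken at 2 h only, so the 4 h libraries have no control of their own time. The labels do not state the mice's age or strain, which part of the TTP gene was altered, or whether replicates are separate mice or cultures, so the p-values rest on a spread between libraries that may be only technical.

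IL-3 is the growth and survival factor of basophils, and GM-CSF acts on granulocytes, macrophages and dendritic cells. Each binds its own alpha chain, which pairs with a beta chain that carries JAK2. JAK2 then phosphorylates STAT5, which induces survival genes and feedback inhibitors such as Cish and the SOCS genes. Activated T cells, mast cells and basophils make both cytokines, through NFAT and AP-1 among other factors, and the tails of both mRNAs are textbook examples of AU-rich elements. The cells measured here had grown in IL-3, and the labels do not say whether it was present during the stimulation.

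In the reference gene order Il3 and Csf2 are neighbours on chromosome 11, with P4ha2 on the Csf2 side and Acsl6 on the Il3 side. Both flanking genes were nearly silent, with at most 11 counts in a library for P4ha2 and 1 for Acsl6, and neither was tested. The sequence that TTP is known to bind is shown for Csf2, whose annotated 3′ UTR holds the densest such element among the members. The GENCODE annotation (GRCm38) gives Csf2 a 3′ UTR of 317 bases that holds the pentamer ATTTA 9 times and the longer TATTTAT 9 times, overlapping copies included, and 0.129% of 20968 genes hold as many copies of TATTTAT. A 30-base site of it, at chr11:54247328-54247357 on the minus strand, holds 5 overlapping copies of ATTTA, with the run they form in capitals:
Csf2 AU-rich site: ttttaaatATTTATTTATTTATTTATTTAt
The 3′ UTR annotated for Il3 in the same source is 101 bases long and holds 1 ATTTA and 0 TATTTAT, but the RefSeq gene of Il3 ends 218 bases further on, and that stretch was not read here. In the annotated 3′ UTRs of Il3ra, Csf2ra, Csf2rb and Csf2rb2 neither motif was found, whereas 65% of genes hold ATTTA and 27.5% hold TATTTAT. For Csf2ra only 602 bases were searched. Its RefSeq gene ends 6766 bases further on, and that stretch was not read either.

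The promoter of Il3 is shown because Il3 is the cytokine gene whose level with antigen differed between the genotypes. The stretch covers the 200 bases before the RefSeq start (GRCm38.p6, chr11:54267280-54267479, minus strand), with a RUNX motif (TGTGGT) and a GATA motif (AGATAA) in capitals:
Il3 promoter: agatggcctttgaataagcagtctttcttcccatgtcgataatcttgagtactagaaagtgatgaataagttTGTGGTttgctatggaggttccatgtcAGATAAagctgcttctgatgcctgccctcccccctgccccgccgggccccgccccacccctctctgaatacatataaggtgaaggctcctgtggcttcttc
Motifs were searched on both strands of the table's 300-base window, and matches of different motifs could overlap. TGTGGT occurs in 16.8% and AGATAA in 11.2% of 32851 promoters, and the NFAT core GGAAA, with 1 match upstream of the printed stretch, in 61.3%. The AP-1 letters TGANTCA (7.81% of promoters) and the STAT5 letters TTCNNNGAA (8.3%) do not occur in this window. These matches describe letters and are not evidence of binding, and Csf2rb has no entry in the table.

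The libraries held between 5516600 and 12733000 counts. Basophil markers (9 genes, among them the protease Mcpt8 and the IgE receptor chain Fcer1a) summed to between 23700 and 32100 CPM, the count scaled to library size with factors from the trimmed mean of M-values method (TMM). Markers of T cells, another source of both cytokines, summed to between 5.65 and 17.3 CPM over 7 genes, and Cd3e, Cd3d, Cd3g, Cd4 and Cd8a stayed under the filter. Zfp36 RNA was not reduced by label: it averaged 237 ± 11.4 CPM (SD, n = 3) in WT and 224 ± 4.46 in TTP-KO controls, and 448.5 ± 10.6 against 564 ± 9.92 after 2 h of antigen, where it was higher (log2 fold change 0.33 ± 0.05 SE, edgeR adjusted p = 0.000316). Since the altered part is not stated, this level does not check the genotype labels.

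Antigen raised both cytokine genes and, relative to other genes, the beta chains in both genotypes, and the genotypes differed in Il3 and in the beta chains. In the edgeR quasi-likelihood fit, 4 of the 6 genes rose in WT at 2 h and 0 fell, where 35.1% of all genes tested passed in either direction. That count depends on the scaling: with plain library totals in place of TMM, 2 rose (Il3 and Csf2) and 2 fell (Il3ra and Csf2ra) in each genotype at 2 h. At 4 h 5 rose and 1 fell in WT (38.0% of all genes). In TTP-KO the counts were 4 higher and 0 lower at 2 h (34.5%) and 5 higher and 1 lower at 4 h (35.0%). Between 2 h and 4 h, 2 of the 6 fell and 0 rose in WT (31.1% of all genes), and 2 rose and 2 fell in TTP-KO (30.8%). Between genotypes, 2 of the 6 genes were lower in TTP-KO controls (1.65% of all genes passed in either direction, 1.24% lower), 3 were lower at 2 h (2.79% and 1.88%) and 2 were lower at 4 h (5.22% and 3.40%), and 0 were higher in any condition. Groups of 3 libraries that did not overlap were also common at large: 17.5%, 18.5% and 25.1% of all genes in the control, 2 h and 4 h genotype comparisons, against 3, 3 and 4 of the 6 genes. Over all genes the median genotype difference was -0.0010, 0.0040 and 0.0074 on the log2 scale.

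Il3 (ENSMUSG00000018914) was barely present without antigen. In the WT controls it stood at 0.925, 2.66 and 0.388 CPM and in the TTP-KO controls at 1.17, 1.23 and 1.6 CPM, from 4 to 16 counts per library. After 2 h of antigen the WT libraries held 11.9, 12.4 and 13.5 CPM and the TTP-KO libraries 2.71, 4.48 and 4.05 CPM. At 4 h the levels were 16.9, 18.2 and 14.7 CPM in WT and 6.64, 7.92 and 4.83 CPM in TTP-KO. All 6 stimulated WT libraries were above all 6 stimulated TTP-KO libraries, and every stimulated library was above every control of its own genotype.

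The rise of Il3 over control in WT was 10.8-fold at 2 h (log2 fold change 3.43 ± 0.34 SE, edgeR adjusted p = 1.01e-08) and 14.2-fold at 4 h (3.83 ± 0.33, edgeR adjusted p = 9.8e-10). In TTP-KO it was 2.75-fold at 2 h (1.46 ± 0.37, edgeR adjusted p = 0.00306) and 4.71-fold at 4 h (2.24 ± 0.34, edgeR adjusted p = 9.17e-06). With antigen, TTP-KO cells therefore held less Il3 RNA than WT cells. The difference was 70.2% at 2 h (log2 fold change -1.75 ± 0.29, 95% interval -2.37 to -1.12, edgeR adjusted p = 0.000727) and 61.3% at 4 h (-1.37 ± 0.25, 95% interval -1.91 to -0.83, edgeR adjusted p = 0.000924). Between the control groups Il3 did not differ beyond its spread (0.22 ± 0.44, edgeR adjusted p = 0.902), at counts too low to show a small difference. In bulk RNA, fewer cells expressing a gene and less RNA per cell cannot be told apart.

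The order of the Il3 levels was WT at 4 h, WT at 2 h, TTP-KO at 4 h, TTP-KO at 2 h and then both controls. The controls did not differ past the threshold. Nor did WT at 4 h and 2 h (0.40 ± 0.24, edgeR adjusted p = 0.227), although their libraries did not overlap, and this step was called with only those groups in the fit (edgeR adjusted p = 0.027) and with library totals (0.60, edgeR adjusted p = 0.0494). WT at 2 h and TTP-KO at 4 h were not compared by a test. In TTP-KO the step from 2 h to 4 h was at the threshold (0.78 ± 0.30, edgeR adjusted p = 0.0494) and was not called when any 1 of 5 of its 6 libraries was left out, or with relative log expression (RLE) scaling (edgeR adjusted p = 0.0559). Tested as a difference of responses, the smaller rise in TTP-KO missed the threshold over all genes at 2 h (interaction -1.97 ± 0.53, edgeR adjusted p = 0.324) and at 4 h (-1.59 ± 0.51, edgeR adjusted p = 0.201). These interactions rest on the sparse controls: without WT control replicate 2, the library with 16 counts, they were -2.82 (edgeR adjusted p = 0.00975) and -2.44 (edgeR adjusted p = 0.0105), and with no filter on low counts their adjusted p was 0.00539 and 0.0151.

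**Figure D1:**
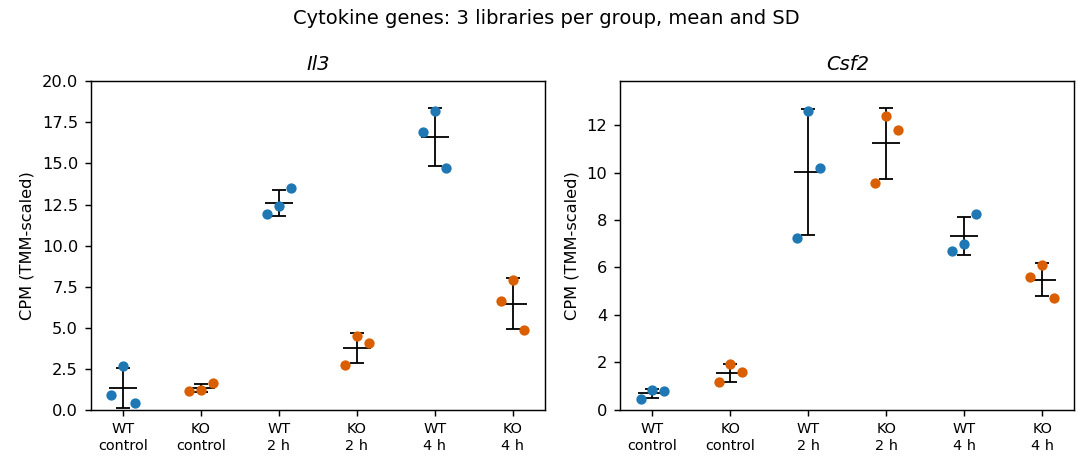
Il3 and Csf2 in each library, as TMM-scaled CPM on linear axes that start at 0; points are the 3 libraries of a group (blue WT, orange TTP-KO), the horizontal mark is the mean and the bar its SD. The 6 stimulated WT libraries of Il3 sit between 11.9 and 18.2 CPM and the 6 stimulated TTP-KO libraries between 2.71 and 7.92, while for Csf2 the genotypes overlap at 2 h.

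Csf2 (ENSMUSG00000018916) rose with antigen in both genotypes, with no genotype difference past the threshold. Its controls were at 0.463, 0.83 and 0.776 CPM in WT and 1.17, 1.91 and 1.6 CPM in TTP-KO, from 4 to 17 counts per library. At 2 h WT held 7.26, 12.6 and 10.2 CPM and TTP-KO 9.55, 12.4 and 11.8 CPM. At 4 h WT held 6.71, 7 and 8.24 CPM and TTP-KO 5.61, 6.1 and 4.72 CPM. The genotypes overlapped at 2 h, whereas all 3 TTP-KO libraries were above all WT libraries in the control and below them at 4 h.

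The rise of Csf2 in WT was 14.5-fold at 2 h (log2 fold change 3.86 ± 0.29, edgeR adjusted p = 8.12e-12) and 10.5-fold at 4 h (3.39 ± 0.29, edgeR adjusted p = 1.68e-10). In TTP-KO it was 7.05-fold (2.82 ± 0.25, edgeR adjusted p = 2.66e-10) and 3.43-fold (1.78 ± 0.26, edgeR adjusted p = 2.76e-06). Its group mean was highest at 2 h in both genotypes, and its later drop passed the test in TTP-KO (-1.04 ± 0.21, edgeR adjusted p = 0.000366) and not in WT (-0.46 ± 0.21, edgeR adjusted p = 0.0909). Whether the drop differed between genotypes was tested and did not pass (-0.58 ± 0.30, edgeR adjusted p = 0.584). Without WT 2 h replicate 1, the lowest of its group, the drop in WT passed too (-0.67, edgeR adjusted p = 0.0201).

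None of the genotype differences of Csf2 passed the threshold. They were 1.20 ± 0.36 in the control (edgeR unadjusted p = 0.00253, adjusted p = 0.086), 0.16 ± 0.21 at 2 h (95% interval -0.29 to 0.61, edgeR adjusted p = 0.797) and -0.42 ± 0.21 at 4 h (95% interval -0.88 to 0.04, edgeR adjusted p = 0.319). The difference between genotypes in the 4 h response was -1.62 ± 0.42 (edgeR adjusted p = 0.0741), which passed only when the filter on low counts was dropped (edgeR adjusted p = 0.0449). Reads of Csf2 and of its annotated antisense gene Gm12223 were split in 1 library, where Gm12223 took 1.26 counts, and no source used here says whether the counting used strand.

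The alpha chains showed no genotype difference past the threshold, and moved in opposite directions with time. Il3ra (ENSMUSG00000068758), the IL-3 binding chain, was at 165, 180 and 187 CPM in WT controls and 161, 189 and 195 CPM in TTP-KO controls. At 2 h it was at 169, 165 and 176 CPM in WT and 174, 171 and 175 CPM in TTP-KO. By 4 h it had come down to 134, 132 and 143 CPM in WT and 134, 132 and 142 CPM in TTP-KO, below every library of the other groups. The 4 h level was 23.1% below control in WT (log2 fold change -0.38 ± 0.06, edgeR adjusted p = 9.78e-06) and 25.3% below in TTP-KO (-0.42 ± 0.06, edgeR adjusted p = 2.29e-06), and at 2 h neither genotype had changed past the threshold under TMM scaling. The genotype differences were 0.04 ± 0.06, 0.03 ± 0.06 and -0.0035 ± 0.0606 in control, 2 h and 4 h, with edgeR adjusted p from 0.86 to 0.987, and the 95% intervals ran from -0.14 to 0.17. An annotated antisense gene, Gm48860, overlaps Il3ra and had at most 11.03 counts in a library.

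Csf2ra (ENSMUSG00000059326), the GM-CSF binding chain, was above control by 4 h under TMM scaling. It was at 112, 117 and 118 CPM in WT controls and 124, 114 and 112 CPM in TTP-KO controls, then at 132, 122 and 125 CPM and 120, 120 and 137 CPM at 2 h. At 4 h it reached 137, 137 and 143 CPM in WT and 158, 149 and 134 CPM in TTP-KO, above all controls. The 4 h rise was 19.9% in WT (0.26 ± 0.06, edgeR adjusted p = 0.00113) and 26.4% in TTP-KO (0.34 ± 0.06, edgeR adjusted p = 6.78e-05). With library totals the rise in WT was 0.137 and was not called (edgeR adjusted p = 0.0816). Under TMM scaling the 2 h values missed the threshold (0.12 in WT and 0.11 in TTP-KO, edgeR adjusted p = 0.136 and 0.19). With library totals the 2 h values were falls that passed (-0.20 and -0.23, edgeR adjusted p = 0.00939 and 0.00367). Genotypes overlapped in all 3 conditions (edgeR adjusted p from 0.523 to 0.981).

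The beta chains were the most abundant members and were lower in TTP-KO in every condition, by a margin that passed the test for both genes in the control and at 2 h and for Csf2rb alone at 4 h. Csf2rb (ENSMUSG00000071713), the beta chain shared by the receptors for IL-3, GM-CSF and IL-5, ranked 26 among all genes of the deposited table by mean CPM and Csf2rb2 (ENSMUSG00000071714) ranked 54. Csf2rb stood at 2670, 2840 and 2820 CPM in WT controls and 2340, 2400 and 2390 CPM in TTP-KO controls. At 2 h it stood at 3440, 3460 and 3650 CPM against 3200, 2950 and 2900 CPM. The 4 h levels were 3200, 3330 and 3450 CPM in WT against 3050, 3030 and 3040 CPM. In every condition the lowest WT library was above the highest TTP-KO library. Csf2rb was 14.3% lower in TTP-KO controls (log2 fold change -0.22 ± 0.04, edgeR adjusted p = 0.000625), 14.2% lower at 2 h (-0.22 ± 0.04, edgeR adjusted p = 0.000598) and 8.67% lower at 4 h (-0.13 ± 0.04, edgeR adjusted p = 0.034). The 4 h call was lost without WT 4 h replicate 2 or 3, or any 1 of the 3 TTP-KO 4 h libraries (edgeR adjusted p from 0.0932 to 0.203), with values from -0.13 to -0.10.

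Csf2rb2 stood at 1460, 1710 and 1760 CPM in WT controls and 1340, 1400 and 1330 CPM in TTP-KO controls. At 2 h it stood at 2180, 2180 and 2260 CPM against 1760, 1760 and 1750 CPM. The 4 h levels were 1730, 1850 and 1970 CPM in WT against 1640, 1730 and 1630 CPM, where the lowest WT and the highest TTP-KO library nearly met without overlapping. The gap was widest and the groups tightest at 2 h. Csf2rb2 was 17.4% lower in TTP-KO controls (-0.28 ± 0.05, edgeR adjusted p = 0.0102), 20.5% lower at 2 h (-0.33 ± 0.05, edgeR adjusted p = 0.00146) and 10.1% lower at 4 h, which missed the threshold (-0.15 ± 0.05, edgeR adjusted p = 0.128). The control call was lost without WT control replicate 2, TTP-KO control replicate 1 or TTP-KO control replicate 3 (edgeR adjusted p = 0.0557, 0.0565 and 0.0611).

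Csf2rb and Csf2rb2 are neighbours on chromosome 15 and share 95.2% of 2631 aligned coding bases, and 26% of the 50-base windows of the Csf2rb coding sequence occur unchanged in Csf2rb2. Neither gene had a whole-number count in any library, but their sum was whole (to within 0.01) in all 18, so reads had been divided between them by estimation and each gene's own value is uncertain. The share assigned to Csf2rb ran from 61.2% to 65.2%. In WT at 2 h it was 61.24% to 61.69%, below TTP-KO at 2 h (62.35% to 64.48%) and WT at 4 h (63.63% to 64.86%). The sum of both genes does not depend on how reads were divided: it took from 0.416% to 0.539% of a library and was 15.5% lower in TTP-KO controls (log2 fold change -0.24 ± 0.04, edgeR adjusted p = 0.000293), 16.6% lower at 2 h (-0.26 ± 0.04, edgeR adjusted p = 9.47e-05) and 9.18% lower at 4 h (-0.14 ± 0.04, edgeR adjusted p = 0.0279). From 2 h to 4 h in WT the sum changed by -0.145 ± 0.038 (edgeR adjusted p = 0.00424), and Csf2rb2 alone by -0.25 ± 0.05.

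**Figure D2:**
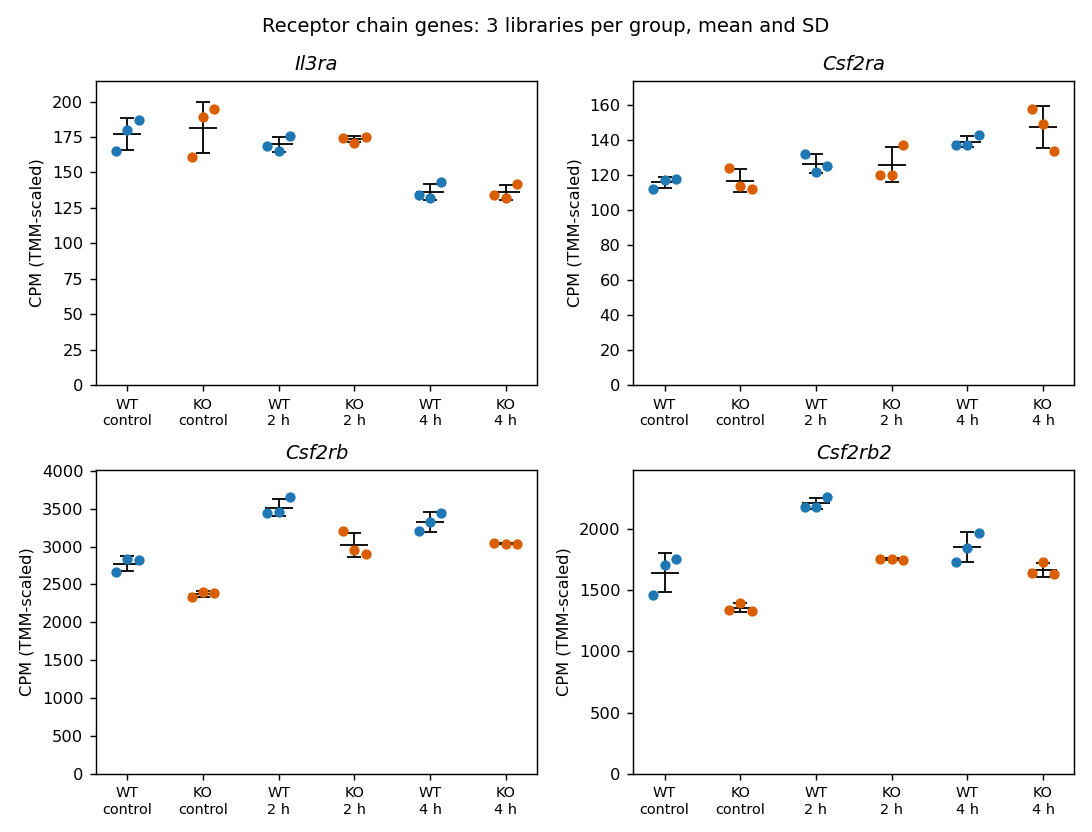
The 4 receptor chain genes in each library, as TMM-scaled CPM on linear axes that start at 0; points are the 3 libraries of a group (blue WT, orange TTP-KO), the horizontal mark is the mean and the bar its SD. The genotypes overlap for Il3ra and Csf2ra, and for Csf2rb and Csf2rb2 every WT library is above every TTP-KO library of its condition.

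With antigen, Csf2rb rose by 26.7% in WT at 2 h (log2 fold change 0.34 ± 0.04, edgeR adjusted p = 1.41e-08) and by 26.9% in TTP-KO (0.34 ± 0.04, edgeR adjusted p = 1.31e-08). Csf2rb2 rose by 34.4% in WT (0.43 ± 0.05, edgeR adjusted p = 2.79e-06) and by 29.4% in TTP-KO (0.37 ± 0.05, edgeR adjusted p = 1.7e-05). These sizes hold only relative to other genes, since the scaling matters for changes this small. With plain library totals in place of TMM the median of all genes moved from -0.047 to -0.37 in WT at 2 h, and the 2 h changes became 0.0163 for Csf2rb (edgeR adjusted p = 0.706), 0.103 for Csf2rb2 (edgeR adjusted p = 0.068), -0.20 for Csf2ra (edgeR adjusted p = 0.00939) and -0.39 for Il3ra (edgeR adjusted p = 3.06e-06). Relative to the median gene the beta chains were higher at 2 h under either scaling, but their share of the library was nearly flat. The cytokine rises, the fall of Il3ra at 4 h and the genotype differences of Il3 kept their direction and their call under TMM, RLE and library totals, and the genotype difference of Csf2rb at 4 h did not with library totals (-0.11, edgeR adjusted p = 0.0686).

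At 4 h Csf2rb was still 19.9% above control in WT (0.26 ± 0.04, edgeR adjusted p = 1.59e-06) and 27.8% above in TTP-KO (0.35 ± 0.04, edgeR adjusted p = 9.65e-09). Csf2rb2 had come back from its 2 h level in WT (-0.25 ± 0.05, edgeR adjusted p = 0.00124), with 4 h libraries that overlapped the controls (0.17 ± 0.05, edgeR adjusted p = 0.0171), a call lost without WT control replicate 1 or WT 4 h replicate 2 or 3 (edgeR adjusted p from 0.0803 to 0.0929) or with library totals (0.0476, edgeR adjusted p = 0.454). In TTP-KO the 4 h rise of Csf2rb2 was 22.6% (0.29 ± 0.05, edgeR adjusted p = 0.000253). For none of the 4 receptor chains did the response differ between genotypes past the threshold: the interactions at 2 h and 4 h lay between -0.06 and 0.12 on the log2 scale, with edgeR adjusted p from 0.561 to 1. Over the 3 interactions 0 of the 6 genes passed by edgeR, where 0.0497%, 0.689% and 0.313% of all genes did (2 h response, 4 h response and change from 2 h to 4 h). At an unadjusted p under 0.05 the counts were 2 (Il3 and Csf2), 2 (the same genes) and 1 (Csf2rb2) of 6. DESeq2 gave an adjusted p for 4 of the 6 in each interaction, the receptor chains, and called 0. It gave none for Il3 or Csf2, so it did not judge these genes.

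**Figure D3:**
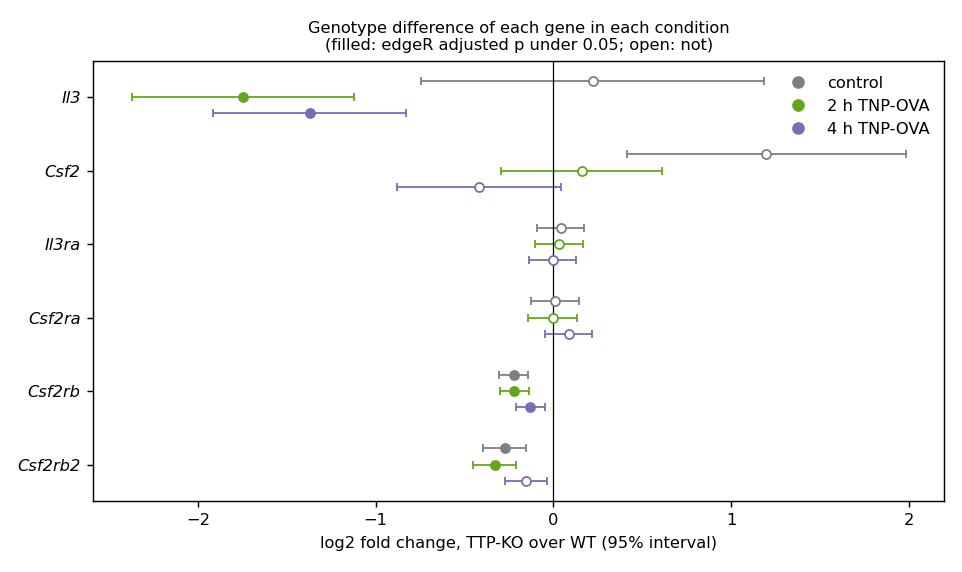
Genotype difference of each gene (log2 fold change, TTP-KO over WT, bars: 95% interval) in control, 2 h and 4 h libraries, 3 per group; filled points have an edgeR adjusted p under 0.05. Il3 lies at -1.75 and -1.37 with antigen, the beta chains between -0.33 and -0.13, and both alpha chains within 0.09 of 0.

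Markers of basophils and of some other cells also differed with the genotype. Of all genes 1.65% passed between genotypes in control, 2.79% at 2 h and 5.22% at 4 h, in either direction. The shares lower in TTP-KO were 1.24%, 1.88% and 3.40%. Of the 9 basophil markers, Hdc and Cyp11a1 were lower and Prss34 higher in TTP-KO controls, Cyp11a1 was lower and Prss34 higher at 2 h, and Mcpt8, Gata2, Hdc, Cyp11a1 and Ms4a2 were lower at 4 h. The summed basophil level was 23700 to 25000 CPM in WT and 24500 to 25900 CPM in TTP-KO controls, and 24800 to 26300 against 23800 to 24300 CPM at 4 h. Of 6 macrophage and monocyte markers, Cd14 was lower in TTP-KO controls and Cd68 and Mrc1 were higher at 4 h, with a summed level of 972 to 986 CPM in WT and 950 to 962 CPM in TTP-KO controls, and 951 to 992 against 1050 to 1110 CPM at 4 h. The 3 B cell markers reported (Cd79a, Cd79b and Ms4a1) were lower in TTP-KO in each of the 3 conditions, with a summed level of 37.1 to 51.1 CPM in WT and 16.9 to 24.6 CPM in TTP-KO. Of 6 neutrophil markers, the granule genes Ngp, Camp, Ltf and Mpo were higher in TTP-KO in each condition, with a summed level of 489 to 522 CPM in WT controls and 710 to 861 CPM in TTP-KO controls. Of 5 mast cell markers tested, the proteases Cma1 and Tpsb2 were lower in each condition. The mast cell sum was 1440 to 1480 CPM in WT controls and 1320 to 1340 CPM in TTP-KO controls, but overlapped at 2 h (1320 to 1360 and 1290 to 1340 CPM). At 4 h the mast cell sum was again lower in TTP-KO, at 864 to 897 CPM against 1000 to 1050 CPM in WT. Of 4 natural killer and innate lymphoid cell markers tested, Il7r alone was lower in TTP-KO in each condition. That list summed to 152 to 165 CPM in WT and 126 to 132 CPM in TTP-KO controls, and to 216 to 229 against 183 to 200 CPM at 2 h. At 4 h it summed to 174 to 180 against 146 to 155 CPM. Most of this sum was Il7r itself, at 122 ± 8.42 CPM in WT and 97.8 ± 3.45 CPM in TTP-KO controls (SD, n = 3). Neither of the 2 T cell markers tested (Trac and Cd28) passed between genotypes in any condition. Trac, a T cell receptor chain gene, rose with antigen in both genotypes, from 0.890 ± 0.494 to 6.36 ± 1.38 CPM at 2 h in WT and from 0.821 ± 0.049 to 5.29 ± 0.97 CPM in TTP-KO (SD, n = 3). The part of these cells in the rise of Il3 and Csf2, or in the genotype differences of Il3, Csf2rb and Csf2rb2, was not tested.

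Some related growth factor genes also differed between the genotypes. Of 12 genes listed (other cytokines and receptors of this class), 9 were tested, and Il5, Il5ra and Csf3 stayed under the filter. In WT at 2 h 6 of the 9 rose, where 17.8% of all genes did. Csf1, encoding the macrophage growth factor M-CSF, went from 856 ± 34.6 to 3408 ± 38.6 CPM (SD, n = 3). The receptor chains Il2rg, Il7r and Crlf2, the last the receptor chain for TSLP, rose by 0.67 ± 0.05, 0.67 ± 0.05 and 0.27 ± 0.04 on the log2 scale, and Kit fell. Between genotypes Il7r was lower in TTP-KO in the control (-0.32 ± 0.06, edgeR adjusted p = 0.00103), at 2 h (-0.20 ± 0.05, edgeR adjusted p = 0.0403) and at 4 h (-0.25 ± 0.05, edgeR adjusted p = 0.00357). Csf1 was lower in the control (-0.19 ± 0.04, edgeR adjusted p = 0.00873), so that 2 of the 9 were lower in the control (1.24% of all genes), 1 at 2 h (1.88%) and 1 at 4 h (3.40%). The median of the 9 genotype differences was -0.16, -0.041 and -0.075 in control, 2 h and 4 h.

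Of 24 genes for kinases, adaptors and phosphatases that act below these receptors, all tested, 7 rose and 8 fell in WT at 2 h. Among all genes 35.1% passed there in either direction. The kinase gene Jak1 rose from 282 ± 9.08 to 422 ± 13.4 CPM (SD, n = 3), and Ptpn6, a phosphatase that dampens cytokine signals, rose by 0.54 ± 0.06 on the log2 scale. Stat5b fell from 103 ± 7.83 to 56.3 ± 2.59 CPM, and Pik3cd, a catalytic subunit of PI3-kinase, fell by 1.08 on the log2 scale. Between genotypes 0 of the 24 passed in the control, where 1.65% of all genes did. Jak1 (-0.24 ± 0.04, edgeR adjusted p = 0.000628) and Fyn (-0.22 ± 0.06, edgeR adjusted p = 0.0382) were lower at 2 h (1.88% of all genes were lower). At 4 h 3 were lower, among them Pik3cd (-0.36 ± 0.08, edgeR adjusted p = 0.00553), and Cbl, a ubiquitin ligase, was higher (0.30 ± 0.06, edgeR adjusted p = 0.00363). Of all genes 5.22% passed at 4 h in either direction and 3.40% were lower. The median of the 24 genotype differences stayed between -0.046 and -0.013.

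Of 16 known STAT5 target and feedback genes, all tested, most rose with antigen in both genotypes, and 10 were lower in TTP-KO at 4 h. In WT 11 of the 16 rose at 2 h and 16 at 4 h, with 0 lower (17.8% and 19.6% of all genes rose). In TTP-KO 12 rose and 1 fell at 2 h (34.5% of all genes passed in either direction), and 13 rose and 1 fell at 4 h (35.0%). The falling gene was Bcl2 both times. Between genotypes, 1 was higher in TTP-KO controls (Bcl2), where 1.65% of all genes passed in either direction. At 2 h 2 were lower (Ccnd2 and Id1), as were 1.88% of all genes. At 4 h the 10 lower genes stood beside 6 that did not pass, with a median over the 16 of -0.43 against 0.0074 over all genes. Of all genes 3.40% were lower at 4 h. Leaving out 1 of the 6 libraries at 4 h gave 9 or 10. Several of these genes also respond to other signals of antigen stimulation, and the list was chosen with results of these data known.

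The feedback gene Socs1, an inhibitor of JAK kinases, went from 73.6 ± 2.37 CPM in WT controls to 338 ± 19 at 2 h and 355 ± 36.8 at 4 h. In TTP-KO it went from 66.5 ± 2.17 to 324 ± 7.17 and back to 241 ± 9.42 (SD, n = 3 each), so that the groups separated at 4 h (log2 fold change -0.56 ± 0.06, edgeR adjusted p = 9.18e-08). Ccnd2, encoding a D-type cyclin, was lower already at 2 h (305 ± 20.3 against 241 ± 16.1 CPM, -0.34 ± 0.06, edgeR adjusted p = 0.00218) and more so at 4 h (184 ± 18.1 against 112 ± 6.34 CPM, -0.71 ± 0.07, edgeR adjusted p = 2.63e-08). Id1, an inhibitor of helix-loop-helix factors, was lower at 2 h (-0.31 ± 0.07, edgeR adjusted p = 0.0226). The 4 h response itself differed between genotypes for 6 of the 16 (Socs1, Socs3, Bcl2, Ccnd2, Ccnd3 and Id1), all lower in TTP-KO, where 0.412% of all genes were lower. Leaving out 1 library gave 5 to 7 at 4 h. The 2 h response differed for 0 of the 16 and for 0.0497% of all genes. Bcl2, the survival gene, was higher in TTP-KO controls (46.9 ± 4.84 against 36 ± 0.72 CPM, 0.38 ± 0.09, edgeR adjusted p = 0.0149).

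**Figure D4:**
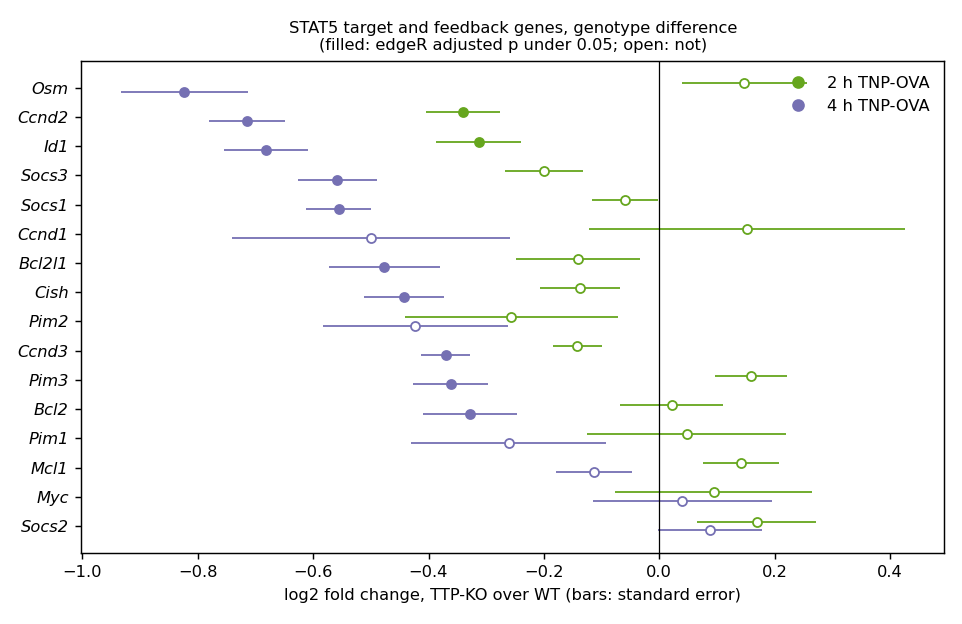
Genotype difference (log2 fold change, TTP-KO over WT, bars: standard error) of the 16 STAT5 target and feedback genes after 2 h and 4 h of antigen, 3 libraries per group; filled points have an edgeR adjusted p under 0.05. At 4 h 10 genes are filled and all 10 lie to the left of 0, and at 2 h 2 are filled.

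Of 18 transcription factors known at the Il3 and Csf2 genes, all tested, most changed with antigen and some were lower in TTP-KO at 4 h. In all, 11 rose and 4 fell in WT at 2 h, and 12 rose and 3 fell in TTP-KO. Of all genes, 35.1% and 34.5% passed in these comparisons in either direction. The AP-1 gene Fosl1 went from 5.69 ± 1.69 to 55 ± 3.47 CPM in WT and from 5.32 ± 1.4 to 48.4 ± 3.88 CPM in TTP-KO (SD, n = 3). Junb and Fosl2, also of AP-1, and Nfatc1 rose in WT by 1.31 ± 0.04, 1.76 ± 0.07 and 1.08 ± 0.06 on the log2 scale. Between genotypes 0 of the 18 passed in the control and 1 was lower at 2 h (1.88% of all genes were), Jund (-0.20 ± 0.05, edgeR adjusted p = 0.015). At 4 h 4 of the 18 were lower (3.40% of all genes), among them Jund (-0.23 ± 0.05, edgeR adjusted p = 0.00138) and Nfatc2 (-0.56 ± 0.14, edgeR adjusted p = 0.0146). For 0 of the 18 did the response differ between genotypes, at 2 h or at 4 h, by the edgeR interaction test. Of all genes only 0.0497% and 0.689% passed that test at 2 h and 4 h.

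Of 11 genes for proteins that bind AU-rich or related elements, 6 rose and 1 fell in WT at 2 h. In that comparison 35.1% of all genes passed in either direction. Zfp36l1, a relative of Zfp36, went from 77.9 ± 3.22 to 194 ± 4.72 CPM in WT and from 68.7 ± 2.31 to 214 ± 3.31 CPM in TTP-KO (SD, n = 3), and its 2 h genotype difference did not pass. Zfp36 itself, and Rc3h1 and Zc3h12a, which code for other mRNA decay factors, rose in WT by 0.92 ± 0.05, 0.46 ± 0.06 and 0.48 ± 0.07 on the log2 scale. Between genotypes Zfp36 at 2 h was the 1 gene of this list whose level passed. Of all genes 1.65%, 2.79% and 5.22% passed between genotypes in control, at 2 h and at 4 h. The response differed between genotypes for Zfp36 at 2 h (0.41 ± 0.08, edgeR adjusted p = 0.0249) and, at the threshold, for Zfp36l1 at 4 h (0.31 ± 0.08, edgeR adjusted p = 0.0499), both higher in TTP-KO. The shares of all genes were 0.0497% at 2 h and 0.689% at 4 h in either direction.

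The genes whose levels ran most like those of a member over the 18 libraries were found by Pearson correlation of log2 CPM among 9625 genes. The libraries share 6 groups, so these values mostly describe group means. Genes picked this way tend to carry the genotype gap of their member, so their own genotype differences are descriptions and not separate evidence. For Il3 the genes most alike were Cap1 (r = 0.948), Ccl2 (0.944) and Asb2 (0.925). Asb2 averaged 25.4 and 23.7 CPM in WT and TTP-KO controls, 94.2 and 64.8 CPM at 2 h, and 169 and 67 CPM at 4 h, and was lower in TTP-KO at 2 h (-0.54 ± 0.10, edgeR adjusted p = 0.00458) and at 4 h (-1.33 ± 0.10, edgeR adjusted p = 1.45e-08). The chemokine gene Ccl2 was lower at 2 h (-0.52 ± 0.12, edgeR adjusted p = 0.00961) and at 4 h (-0.65 ± 0.11, edgeR adjusted p = 0.000198). For Csf2 they were Nxn (0.982), Tuba1c (0.978) and Smim36 (0.971), which had no genotype difference past the threshold with antigen.

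For Il3ra the genes most alike were Nucb1 (0.952), Slc49a4 (0.943) and Mpc1 (0.938), and those for Csf2ra included Chpf2 (0.919) and Tcp1 (0.915). For Csf2rb they were Anpep (0.968), Mindy1 (0.951) and Arhgap30 (0.949), and those for Csf2rb2 included Gcnt1 (0.953) and Csf2rb (0.935), with which it shares reads. Anpep, encoding a surface aminopeptidase, was lower in TTP-KO at 2 h (-0.40 ± 0.05, edgeR adjusted p = 4.42e-05) and at 4 h (-0.32 ± 0.05, edgeR adjusted p = 0.000206). It was picked for running like Csf2rb, so this too is a description. Between the members themselves, Il3 and Csf2 correlated at r = 0.787 over the 18 libraries and at 0.276 once group means were removed, and Csf2rb and Csf2rb2 at 0.935 and 0.653.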

How the data were processed

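The authors deposited 1 table of expected counts per gene, estimated from reads and not normalized. The submitters' processing notes name RSEM 1.3.1, STAR 2.7.10a, cutadapt 3.5, R 4.4.0, R 4.4.1 and the build GRCm39, with no roles. The annotation and strand setting are not given in the sources used here. The control columns, named as unstimulated, were matched to control OVA.

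Counts were rounded, filtered with filterByExpr on the 6 groups, scaled by TMM and fitted with edgeR 4.0.16 (robust quasi-likelihood, 12 residual degrees of freedom) in R 4.3.3. Benjamini-Hochberg adjustment ran over 14076 genes, with a threshold of 0.05, the SE is the log2 fold change over the square root of F, and 95% intervals use 12 degrees of freedom. The procedure was tested on simulated counts. By exact permutation 3 against 3 cannot go below p = 0.1. The counts of replicate libraries within a group differed by more than sampling noise. Over 45 same-numbered pairs, deviations from group means correlated from -0.0814 to 0.0408, so no pairing by replicate number was seen. With 3 libraries per group and all tested genes weighted alike, this cannot exclude shared mice or culture days.

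The members, lists and tests were chosen with earlier results of these data known. Named besides the members are up to 4 genes per list with the smallest p in WT at 2 h, up to 2 per genotype difference, and the 3 genes most correlated with each member among genes averaging 2 or more in log2 CPM (prior count 2). A few genes that these rules and the marker lists hold are not reported here. Others named only to spell out a count of calls were chosen after their values were seen. Sequences came from GENCODE (GRCm38) and RefSeq (GRCm38.p6).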

Additional observations from a re-analysis of the deposited data

How the results depend on the processing

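Of 988 alternative values for the 6 genes, 933 kept their side of the threshold. A change of sign was counted only where the main or the alternative value passed. Il3 between control genotypes (0.22) thus ran from -0.302 to 1.07 with 1 library left out and still counted as kept. Of 162 alternative counts of genes called, 133 stayed within 1.5 times. No pairing by replicate number was seen (same-numbered libraries correlated best in 14 of 45 pairs), and the replicate block changed none of the 84 calls and counts it was run on. With it the Il3 interactions were -1.99 (adjusted p = 0.253) and -1.59 (0.176). DESeq2 gave no adjusted p for 8 values, among them Il3 after 2 h between genotypes (-1.77 ± 0.30) and the interactions of Il3 and Csf2. Where it gave an adjusted p, it changed no call of a member. The control levels of Il3 and Csf2, at 4 to 17 counts, limit every value that rests on them. The cause of the changes below was not tested.

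Library totals in place of TMM, chosen after seeing the data, reversed Csf2ra at 2 h in WT (-0.20) and in TTP-KO (-0.23), Csf2rb from 2 h to 4 h in WT (0.12), and Csf2rb2 from 2 h to 4 h in TTP-KO (0.125). With them calls were lost for Csf2rb between genotypes at 4 h (-0.11), Csf2rb at 2 h in WT (0.0163) and TTP-KO (0.00645), Csf2rb2 at 2 h in WT (0.103) and TTP-KO (0.0346), Csf2ra at 4 h in WT (0.137), Csf2rb2 at 4 h in WT (0.0476), and Il3ra (-0.12) and Csf2rb2 (-0.055) from 2 h to 4 h in WT. Calls were gained for Il3ra at 2 h in WT (-0.39) and TTP-KO (-0.41), Il3 (0.60) and Csf2ra (0.338) from 2 h to 4 h in WT, and Csf2rb from 2 h to 4 h in TTP-KO (0.213). The 2 h responses then had 7696 genes called in WT and 7676 in TTP-KO.

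RLE scaling gained Csf2rb from 2 h to 4 h in WT (-0.10) and lost Il3 from 2 h to 4 h in TTP-KO (0.757). With no filter on low counts, calls were gained for Csf2rb2 between genotypes at 4 h (-0.16), Csf2ra from 2 h to 4 h in WT (0.178), the Il3 interactions at 2 h (-1.97) and 4 h (-1.61) and the Csf2 interaction at 4 h (-1.63). Genes called then numbered 399 between control genotypes and 55, 259 and 134 for the interactions at 2 h, at 4 h and from 2 h to 4 h. DESeq2 called 22, 176 and 103 genes for these interactions. With only the groups compared in the fit, calls were lost for Csf2rb2 between control genotypes (-0.27) and at 4 h in WT (0.166), and gained for Csf2rb2 between genotypes at 4 h (-0.15) and Il3 from 2 h to 4 h in WT (0.399). Genes called were then 149 and 1130 between genotypes in control and at 4 h, and 11 for the 2 h interaction. The summed beta chains passed between genotypes at 4 h (-0.14) and from 2 h to 4 h in WT (-0.145).

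With 1 library left out at a time, genes called between genotypes ran from 145 to 190 in control, 228 to 369 at 2 h and 466 to 551 at 4 h, and for the interactions from 4 to 8 at 2 h, 46 to 133 at 4 h and 25 to 53 from 2 h to 4 h. The Il3 interactions ran from -2.82 to -1.45 at 2 h and -2.44 to -1.07 at 4 h. Between genotypes Csf2rb ran from -0.16 to -0.10 at 4 h, and Csf2rb2 from -0.20 to -0.105 at 4 h and from -0.35 to -0.22 in control. Il3 ran from 0.588 to 0.948 and Csf2ra from 0.174 to 0.292 from 2 h to 4 h in TTP-KO, and Il3ra from -0.154 to -0.0196 at 2 h in TTP-KO. In WT, Csf2rb2 ran from 0.0959 to 0.225 at 4 h, and Csf2 from -0.67 to -0.27 and Csf2rb from -0.122 to -0.049 from 2 h to 4 h.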
